A study of Homo sapiens with 24 samples.

Results

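Transcripts of voltage-gated and potassium channel genes were measured in SH-SY5Y, a human neuroblastoma cell line. The genes were chosen by symbol (potassium channel genes beginning with KCN, sodium channel genes beginning with SCN, and calcium channel genes beginning with CACNA, CACNB or CACNG, none with a hyphen) and by level, with at least 10 counts required in 3 or more of the 24 libraries. Of 26485 genes in the table, 138 had such a symbol and 75 met the level rule. The count rule used levels over all groups, and none of the 75 met it through 1 group alone. Some met it only through part of the groups: KCNIP1 through libraries with IFN (interferon gamma), and KCNN3, CACNG2 and KCNA3 through libraries at 24 h. Higher levels of these 4 genes in those libraries are therefore a description. Just inside the rule lay KCNH4 (4 libraries with at least 10 counts, highest count 15) and KCNS3 (4 libraries, highest count 16). Just outside lay KCNT1 (1 library, highest count 11), CACNG1 (1 library, highest count 12) and CACNG5 (1 library, highest count 10). Of the 63 symbols under the rule, 22 were listed at 0 in all libraries, among them CACNA1A and CACNA1H, named after their values were seen. The 74 channel genes other than KCNK15 passed the filter on low counts and were tested.

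Each of the 8 groups had 3 libraries. Cells were taken at 4 h without treatment or with copper chloride (CuCl2), and at 24 h without treatment, with Dextran-Catechin (DC), with the polyamine TEPA, with interferon gamma (IFN), with DC and IFN, or with TEPA and IFN. DC and TEPA are copper chelators, which bind copper ions. All cells were of the 1 line, which limits every group as a model, and doses are not in the labels. The labels do not say that the 3 libraries of a group came from separate cultures, so p-values measure only the spread between these libraries, which may be technical.

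Voltage-gated channels are membrane pores that open when the membrane potential changes. Sodium channels carry the rising phase of the action potential, calcium channels let in the calcium that triggers secretion, and most potassium channels return the membrane to rest or hold it there. The pore is formed by alpha subunits, while auxiliary subunits change the traffic and gating of the pore. Neuroblastoma arises from the sympathetic nervous lineage, and its cells can be electrically excitable.

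Library totals ran from 24569980 to 35372442 counts, and the summed level of the 75 channel genes from 1336 to 1700 CPM (counts scaled to library size with TMM factors). Of 10 markers of noradrenergic neuroblastoma cells, 9 were tested and expressed, and TH had 0 to 1 counts in every library. IRF1, which interferon induces, lay at 215 to 426 CPM with IFN alone and at no more than 3.54 CPM in the groups without it. SLC30A1, a zinc exporter gene induced by metal, lay at 135 to 196 CPM with copper and at 23.2 to 33.0 CPM in its control, and NQO1, an oxidative stress target, at 198 to 227 CPM with DC against 86.8 to 98.2 CPM in the 24 h control. Libraries within a group also departed from one another according to the GC content of genes. The measure used, called the GC difference, sets the median log2 deviation of GC-rich genes (fraction over 0.6) against that of GC-poor ones (below 0.4), and it ran from -1.34 to 1.38. In the 4 h control it was -1.34, 0.65 and 1.38, and with copper it was -0.65, 0.80 and 1.35. The 4 h libraries numbered 1 therefore stood apart from the other 4 h libraries, and results resting on them are given with and without them. In the IFN libraries it was 0.60, 0.90 and -0.12, while in the 24 h control it was -0.97, -0.37 and -0.79.

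The start regions of channel genes whose levels are described below differ widely in composition. The 100 bases before RefSeq's start are shown because IFN, TEPA, copper or the 24 h harvest went with a difference in these genes and because GC content goes with a library trend. CpG dinucleotides are in capitals, and the sequences run 5′ to 3′ on the gene's strand (RefSeq, GRCh38.p14, which held a promoter for 52 of the 75 genes). The first group rose with IFN and lies at chr10:77637809-77637908 (minus strand), chr4:21948773-21948872 (minus), chr17:70169432-70169531 (plus) and chr2:165239314-165239413 (plus).
KCNMA1: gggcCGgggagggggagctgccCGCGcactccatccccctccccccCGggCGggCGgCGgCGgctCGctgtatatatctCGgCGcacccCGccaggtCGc
KCNIP4: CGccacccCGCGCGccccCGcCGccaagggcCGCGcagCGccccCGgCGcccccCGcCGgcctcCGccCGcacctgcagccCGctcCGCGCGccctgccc
KCNJ2: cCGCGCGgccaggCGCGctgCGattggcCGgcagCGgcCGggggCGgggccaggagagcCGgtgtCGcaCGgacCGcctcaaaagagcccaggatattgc
SCN2A: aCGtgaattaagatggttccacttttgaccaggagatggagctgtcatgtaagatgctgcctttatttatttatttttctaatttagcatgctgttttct
The second group fell with IFN and lies at chr1:211134149-211134248 (minus strand) and chr3:19148410-19148509 (plus). KCNQ3 and KCNMB4, which also fell, are not shown.
KCNH1: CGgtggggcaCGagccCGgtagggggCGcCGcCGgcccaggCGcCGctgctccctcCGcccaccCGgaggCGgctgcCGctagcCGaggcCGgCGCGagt
KCNH8: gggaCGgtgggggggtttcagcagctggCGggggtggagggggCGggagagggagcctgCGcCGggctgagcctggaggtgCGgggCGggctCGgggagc
SCN4B was higher with TEPA, KCNN3 was higher at 24 h than at 4 h and KCNJ3 rose with copper. Their windows lie at chr11:118145434-118145533 (minus), chr1:154870282-154870381 (minus) and chr2:154698595-154698694 (plus). RefSeq's start is 1 of several that a gene can have: the windows of KCNMA1, KCNJ2, SCN2A, SCN4B and KCNJ3 lie inside the gene's span in GENCODE 29, and those of KCNIP4, KCNH1 and KCNH8 reach into it.
SCN4B: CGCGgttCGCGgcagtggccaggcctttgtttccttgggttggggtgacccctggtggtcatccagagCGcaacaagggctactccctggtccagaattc
KCNN3: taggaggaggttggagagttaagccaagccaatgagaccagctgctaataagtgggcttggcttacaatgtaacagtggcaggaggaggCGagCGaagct
KCNJ3: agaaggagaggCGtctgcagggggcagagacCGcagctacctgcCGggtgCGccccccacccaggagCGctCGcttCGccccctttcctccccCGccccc
Among genes that rose with IFN, KCNIP4 had 19 CpG dinucleotides in this window and SCN2A had 1. Among those that fell, KCNH1 had 16 and KCNH8 had 8. The median over 35116 RefSeq windows was 5, with quartiles of 1 and 11, so both directions held windows above it. GC content was 90.0% for KCNIP4, 35% for SCN2A, 52.0% for KCNN3 and 62.0% for SCN4B, against a median of 60.0%. In the full windows of 250 bases before to 50 after the start, the interferon response motif, read on both strands, occurred in 3.57% of promoters and in those of SCN7A and SCN2B. A window without a match says only that this motif is not in it.

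Levels per kilobase of transcript (mean CPM per kb over all libraries) spanned more than 3 orders of magnitude. Among calcium channel genes, the 3 highest levels were of auxiliary subunits. CACNG4, a gamma-family subunit that also traffics AMPA receptors, stood at 66.2, and the alpha2-delta subunits CACNA2D1 and CACNA2D2 at 44.7 and 25.4. The most abundant pore genes were CACNA1D (L-type) at 0.995, CACNA1B (N-type) at 0.384 and CACNA1G (T-type) at 0.120. Cytoplasmic beta subunits were led by CACNB3 at 6.79, CACNB1 at 0.963 and CACNB4 at 0.883. The other gamma-family genes among the 3 most abundant were CACNG7 at 3.64 and CACNG8 at 1.37, and CACNA2D3 stood at 0.323.

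Sodium channel pores were led by SCN9A at 22.1 per kb, a channel of sympathetic and sensory neurons, then SCN3A at 6.25, a channel of the developing brain, and SCN2A at 4.61. Their beta subunits were led by SCN3B at 3.71, with SCN4B at 0.353. Of the potassium channels, KCNJ8, the pore of an ATP-sensitive channel, had the highest level at 23.3, with the inward rectifiers KCNJ2 at 1.16 and KCNJ14 at 0.765 well below. KCNT2, a sodium-activated channel, stood at 7.30, and the subunits KCNMB4 and KCNMB3 of the large-conductance calcium-activated channel at 1.87 and 0.486. All 3 leading voltage-gated pores were of the ether-a-go-go family, with KCNH2 at 7.04, KCNH8 at 6.84 and KCNH1 at 3.96. Auxiliary genes were led by KCNAB3 at 3.08, KCNIP4 at 2.38 and KCNRG at 1.28, and background-leak channels by KCNK1 at 2.81, KCNK3 at 0.402 and KCNK5 at 0.375. KCNN3 was among the least abundant at 0.081. Neighbours in this order often overlapped across libraries: KCNH2 ranged from 12.6 to 71.7 CPM, and KCNH8 from 18.5 to 66.1 CPM. KCNMB3 shares 3403 exon bases with PIK3CA on the opposite strand (2530 against 56084 counts), and the strand setting is not given. KCNJ14 shares 350 exon bases with GRWD1 on the same strand (2221 against 19567 counts).

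**Figure D1:**
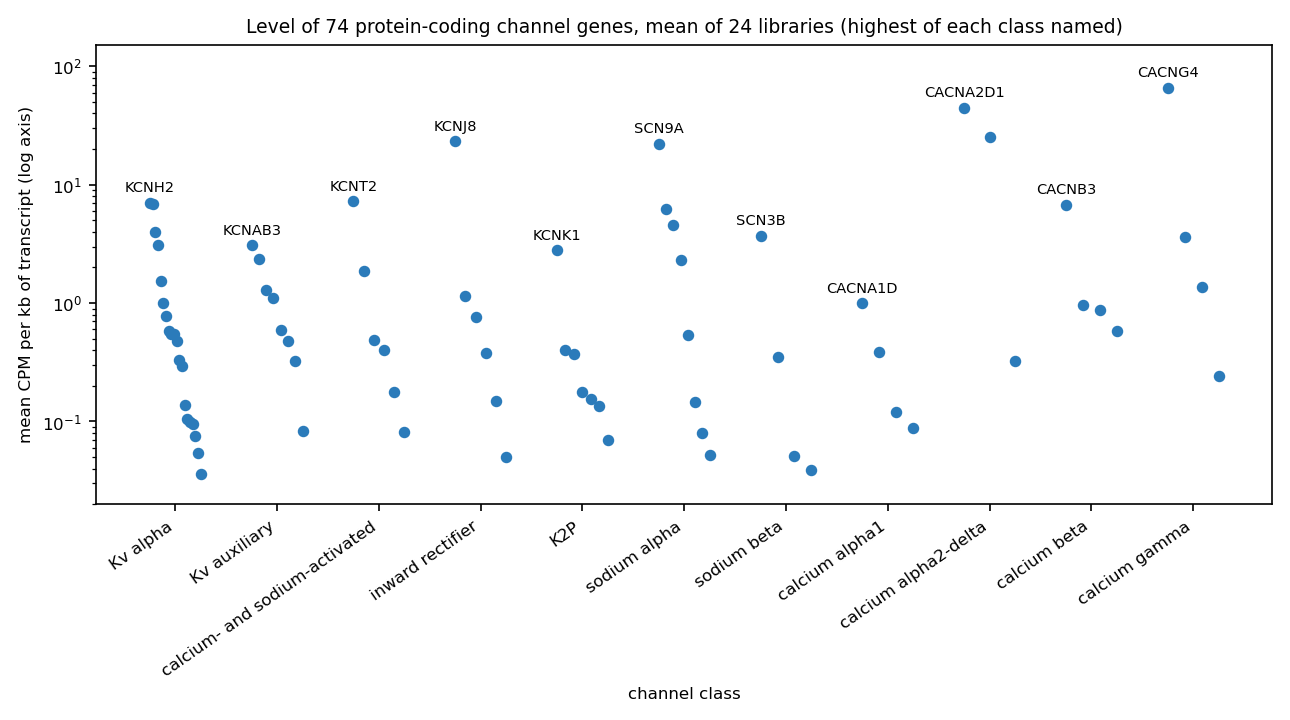
Mean CPM per kb of transcript (log axis) over 24 libraries for each protein-coding channel gene, by class; each point is 1 gene and the most abundant are labelled. CACNG4 at 66.2 and CACNA2D1 at 44.7 are the highest, above every pore gene.

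Interferon gave the largest set of differences at 24 h. Against the untreated cells, 16 of 74 channel genes (21.6%) passed an adjusted p of 0.05, with 7 higher and 9 lower. Over all 14654 genes tested 18.8% passed (10% higher, 8.8% lower), so the share was near the background. The median log2 fold change of the channel genes was 0.09, against 0.01 over all genes. With the GC trend removed, 30 channel genes passed, 9 higher and 21 lower, when 39.5% of all genes passed (11.3% higher, 28.2% lower), and the median of all genes moved from 0.01 to -0.10 and that of channel genes from 0.09 to -0.26. Relative to the shifted median of all genes, channel genes then lay lower, by -0.26 against -0.10. By class, 3 of 20 voltage-gated potassium pores fell and none rose, 2 of 8 sodium pores rose and 2 of 4 sodium beta subunits fell. None of the 4 calcium pores passed.

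IFN was given in 3 settings that share no library: alone against the 24 h control, with DC against DC, and with TEPA against TEPA. With DC, 12 of 74 channel genes passed (16.2%, 6 higher and 6 lower, against 9.82% of all genes, of which 6.16% higher and 3.66% lower). With TEPA also 12 passed (4 higher, 8 lower, against 14.2% of all genes, of which 7.28% higher and 6.89% lower), and with the replicate number as a block 23 passed there (9 higher and 14 lower), when 39.4% of all genes did. Once the GC trend was removed, 24 passed with DC, 9 higher and 15 lower, when 27.4% of all genes did (8.55% higher, 18.8% lower). With TEPA it was then 30, 10 higher and 20 lower, when 33% of all genes did (10.4% higher, 22.6% lower). In 1 direction 8 of 74 passed in all 3 settings, against 8.26% of all genes (5.19% higher, 3.07% lower). The 4 higher were KCNMA1, KCNIP4, KCNJ2 and SCN2A, and the 4 lower KCNQ3, KCNH1, KCNH8 and KCNMB4. In fits of only the libraries compared, 24 channel genes passed with IFN alone, 12 with DC and 9 with TEPA, when 47.8%, 11.2% and 8.43% of all genes did, and KCNMB4 missed the threshold with DC (adjusted p = 0.0799) and with TEPA (0.107), as did KCNJ2 with TEPA (0.0828). Of 19 genes called in at least 1 setting, all 19 had the same sign in all 3, as did 98.4% of all genes so called. Over the 74 channel genes it was 48 (64.9%), and over all genes 79.7%. In a culture of cells, fewer cells with a transcript and less transcript per cell cannot be told apart.

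KCNMA1, the pore of the large-conductance calcium-activated potassium channel, measured 2.11, 3.53 and 2.43 CPM in the 24 h control and 6.02, 7.94 and 7.63 with IFN. With DC it went from 2.11, 2.59 and 2.52 to 4.75, 6.56 and 7.16 CPM, and with TEPA from 3.38, 3.45 and 3.45 to 10.3, 13.4 and 12.6. The libraries with IFN lay above those without it in every setting. The log2 fold changes were 1.42 (SE 0.19, adjusted p = 2.07e-05), 1.35 (SE 0.19) and 1.82 (SE 0.19), and no library left out ended any of these 3 calls. KCNMB4, a subunit of the same channel that is common in neurons, moved the other way. It lay at 8.96 to 9.44 CPM in the control and 6.69 to 6.96 with IFN, and its log2 changes were -0.44, -0.45 and -0.52. Its call with DC was lost without DC library 1 or without DC and IFN library 1 (highest adjusted p 0.0766).

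KCNIP4, which binds and modulates potassium channels of the Kv4 family, lay at 3.29, 3.22 and 3.47 CPM in the control and at 11, 12.3 and 8.64 with IFN. The groups did not overlap in any setting, and the log2 changes were 1.67 (SE 0.25, adjusted p = 5.3e-05), 1.51 and 1.47. Its relative KCNIP1 was almost absent without IFN. It had 3 counts over the 3 control libraries and 48 with IFN, a ratio of 17.1 (95% counting interval 5.50 to 85.7), and 3 against 41 counts with DC, a ratio of 14.8 (4.71 to 74.6). The second was lost without DC library 2 or 3 or DC and IFN library 1 (highest adjusted p 0.0847). With TEPA it had 4 counts without IFN and 21 with it, a ratio of 5.73 (1.93 to 23.0), which was not called (adjusted p = 0.129). KCNIP1 was a rare transcript in every group. It reached 10 counts in 6 libraries, all with IFN, and so met the count rule only where it was high. It is nevertheless among the 7 genes counted higher with IFN alone and the 6 with DC.

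KCNJ2, an inward rectifier that holds the resting potential, lay at 5.91, 4.87 and 3.94 CPM in the control and 7.91, 6.94 and 9.03 with IFN. Its log2 changes were 0.70 (SE 0.19, adjusted p = 0.0158), 0.77 and 0.75. The call alone was lost without control library 3 (adjusted p = 0.0853), that with DC without DC library 1 or DC and IFN library 1 (highest 0.0789), and that with TEPA without TEPA library 3 or TEPA and IFN library 1 or 3 (highest 0.0808). It shares 185 exon bases with KCNJ2-AS1 on the opposite strand, which had 307 counts to its 4442. SCN2A, a sodium pore of central axons, lay at 38.8, 34.1 and 37.2 CPM in the control and 49.6, 51.7 and 54.0 with IFN, log2 changes 0.50 (SE 0.14), 0.65 and 0.55. The first was lost without control library 2 (adjusted p = 0.0525).

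KCNQ3, a pore subunit of the slow potassium current that muscarinic receptors close, lay at 16.6, 13.4 and 20.4 CPM in the control and 5.18, 5.97 and 5.53 with IFN, with log2 changes of -1.60 (SE 0.18, adjusted p = 1.67e-06), -1.35 and -1.44, and the IFN libraries lay below the others in all 3 settings. KCNH1, a voltage-gated pore found in brain and in many tumours, lay at 36.9, 32.0 and 37.7 CPM in the control and 23.8, 21.5 and 22.5 with IFN, and fell by 0.65, 0.61 and 0.77 on the log2 scale. KCNH8, of the same family, lay at 33.0, 39.3 and 39.0 CPM and 19.0, 20.0 and 27.0 with IFN, log2 changes -0.75, -0.61 and -0.66. Its call with DC was lost without DC and IFN library 1 or 2 (highest adjusted p 0.0596). KCNH2, the third of the family, did not pass at 1.09 (SE 0.53), and at -0.07 with the GC trend removed.

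**Figure D2:**
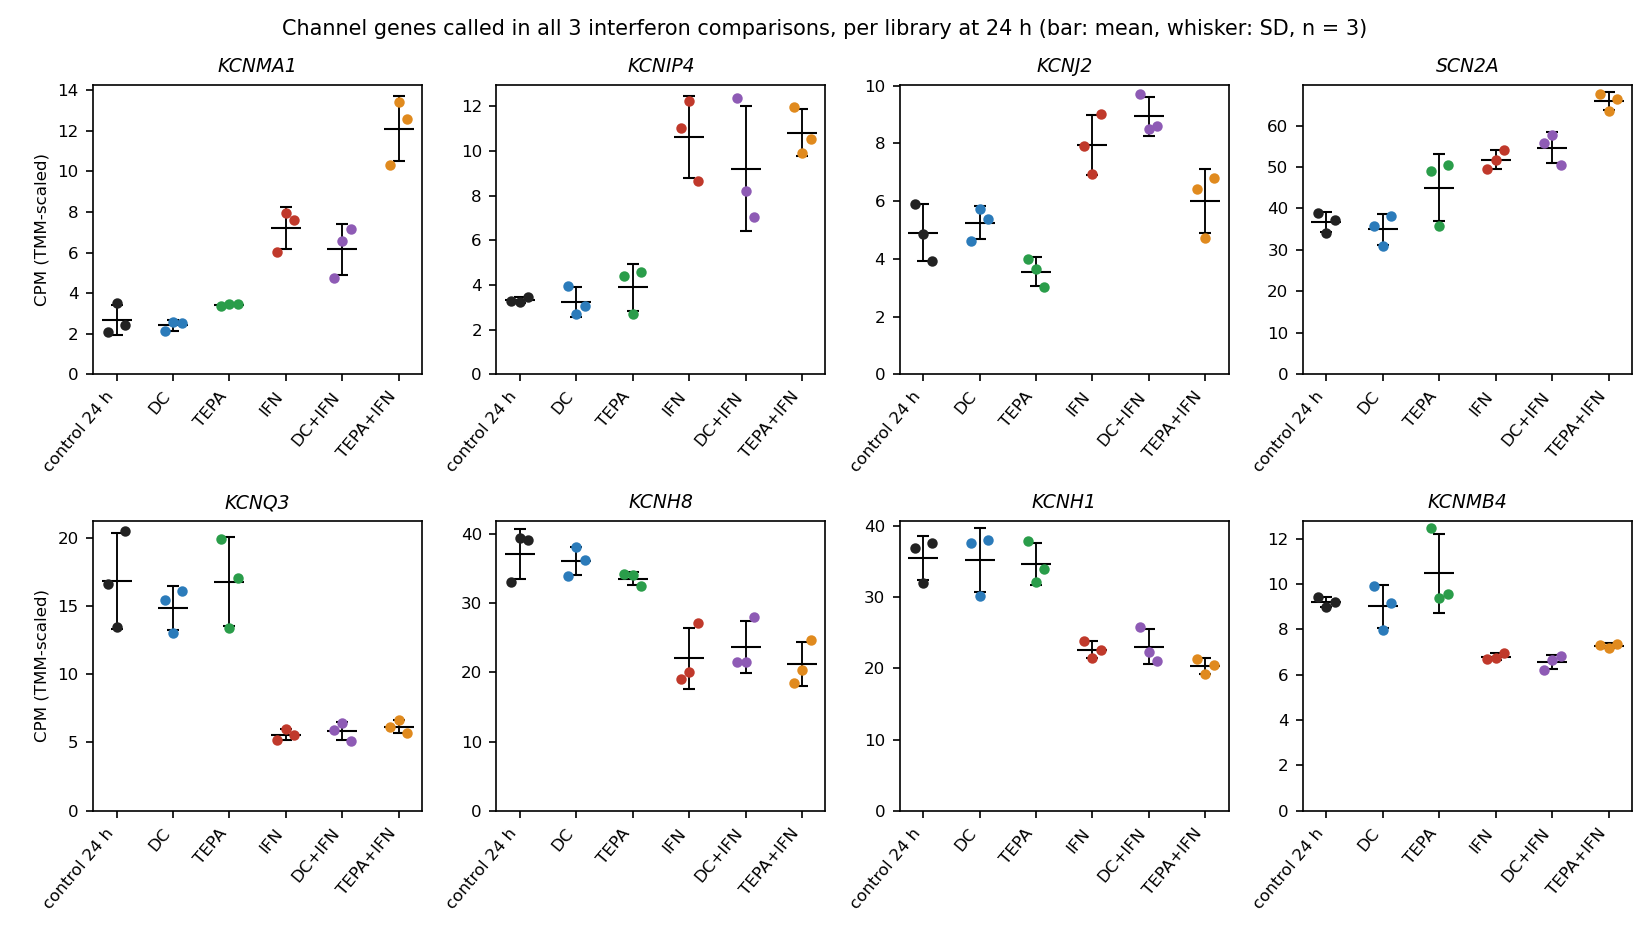
CPM per library at 24 h for the 8 channel genes called in all 3 interferon settings (points: libraries; bar and whisker: mean and SD, n = 3). KCNQ3 sits between 5.11 and 6.65 CPM with IFN and at 13 or more without it, and KCNMA1 reaches 13.4 with TEPA and IFN.

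The remaining calls with IFN alone rested more often on single libraries. SCN3B, a sodium beta subunit, lay at 30.1, 25 and 26.6 CPM in the control and 17.9, 18.1 and 21.6 with IFN (log2 change -0.50, and -0.55 with TEPA), with no overlap. CACNA2D3, a calcium auxiliary subunit, lay at 1.80, 2.35 and 1.77 CPM and at 0.245, 0.791 and 1.11 with IFN, log2 change -1.45 (SE 0.39, adjusted p = 0.013) and -1.66 with TEPA. The first was lost without IFN library 1 (0.0562). The beta subunit CACNB1 (1.02, adjusted p = 0.0446) was lost on leaving out any 1 library other than IFN library 3 (highest 0.168) and at 0.24 with the GC trend removed (adjusted p = 0.232). KCNAB1, which modulates potassium pores (-0.75), was lost without control library 1 or IFN library 1 or 2 (highest 0.0772). KCNRG, which interferes with potassium channel assembly (-0.74), was lost on leaving out any 1 library other than IFN library 3 (highest 0.154). It shares 1086 exon bases with TRIM13 on the same strand, which had 65947 counts to its 1500, so reads in the shared part, out of 1.623 kb of KCNRG transcript, cannot be told apart. SCN11A, a sodium pore of pain neurons (1.32), was lost without control library 2 or IFN library 1 or 2 (highest 0.0776). With DC it rose by 1.30 on the log2 scale, which was lost on leaving out any 1 library other than DC and IFN library 3 (highest 0.258). SCN2B, a beta subunit, lay at 0.577, 0.235 and 0.724 CPM in the control and 0.140, 0.0719 and 0.0953 with IFN. Its call (-2.29, adjusted p = 0.0219) was lost without control library 1 or 3 or IFN library 1 or 2 (highest 0.0935). Without IFN library 1 the count of channel genes called fell to 10 (11.6% of all genes), and with DC it fell to 6 without DC and IFN library 1 (7.34%).

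Markers of fibroblasts and endothelium summed to 287 to 337 CPM with IFN and 212 to 278 in the 24 h control, with 5 of 7 tested and the endothelial PECAM1 and CDH5 at 0 to 1 counts. Schwann cell markers summed to 73.6 to 78.7 against 60.2 to 66.8, with SOX10 at 0 to 3 counts. Markers of noradrenergic cells summed to 2041 to 2181 against 2284 to 2390. Their part in the results was not tested.

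Whether a chelator altered the response to IFN was asked with a difference of differences. No channel gene passed for DC or for TEPA, and no gene at all did in edgeR. At an unadjusted p under 0.05 there were 0 channel genes for DC and 2 for TEPA, of 142 and 205 genes in all. DESeq2 and limma-voom also called no channel gene. With the GC trend removed there were again 0, when 0.0409% of all genes passed for TEPA (0.0273% higher, 0.0136% lower). For KCNMA1 the TEPA difference was 0.40 (95% interval -0.17 to 0.96), and for KCNQ3 it was 0.15 (-0.37 to 0.68). For DC the 2 differences were -0.07 (-0.64 to 0.50) and 0.25 (-0.27 to 0.77). Such intervals leave room for differences of that size, which this design could not separate from the spread.

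**Figure D3:**
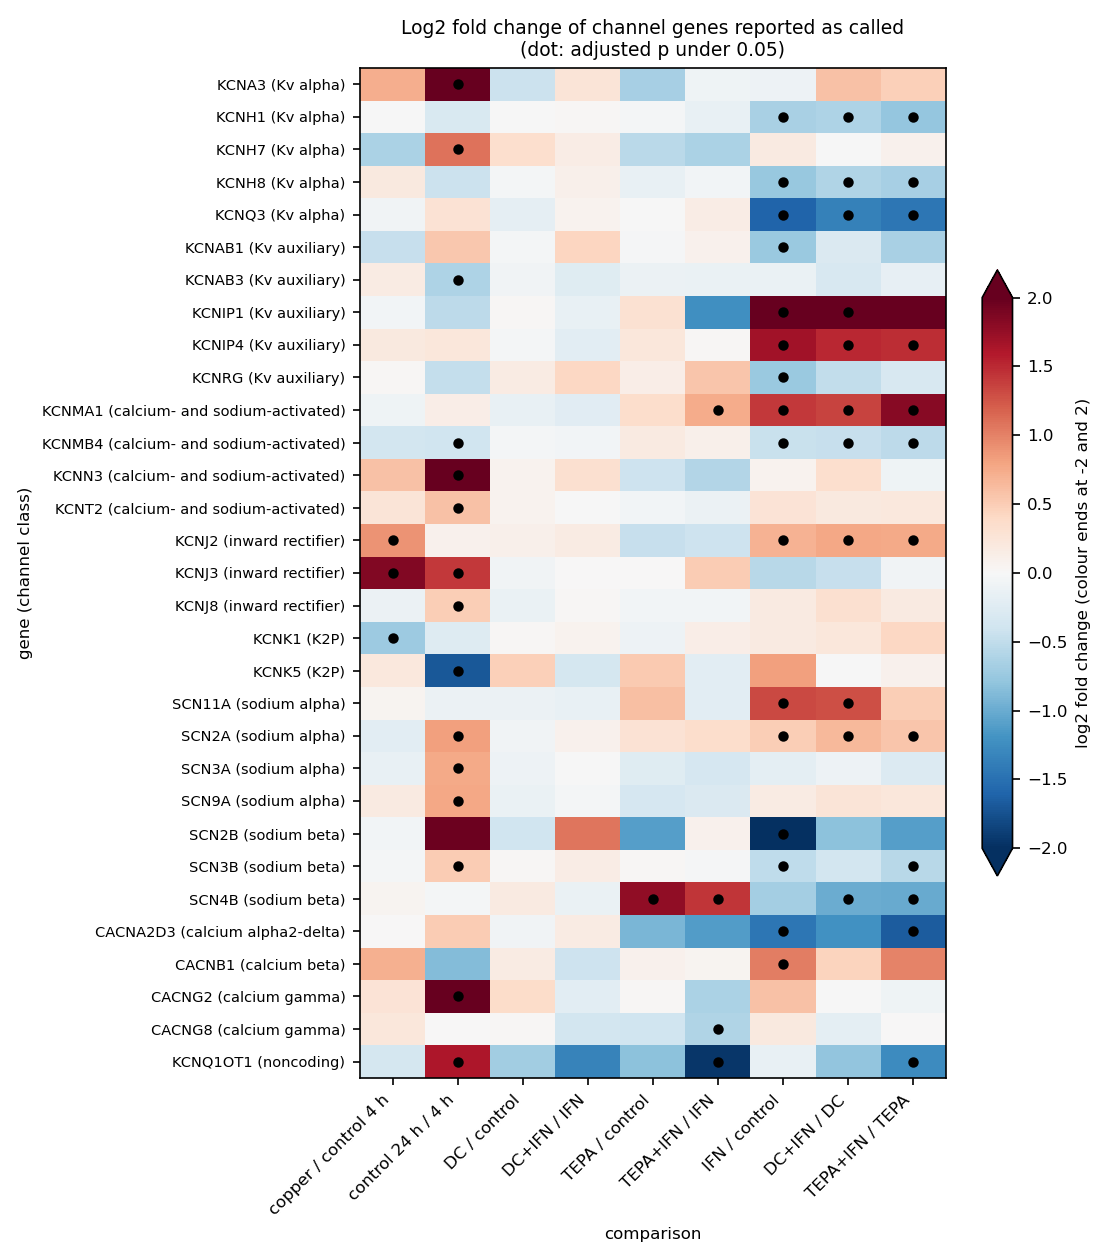
Log2 fold change of the channel genes reported here that were called in at least 1 comparison (rows), per comparison (columns); dots mark adjusted p under 0.05. The 8 genes called in all 3 interferon comparisons have dots in each of those columns, while the DC columns have none.

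TEPA changed few channel genes. Alone it moved 1 of 74 past the threshold, against 1.06% of all genes (0.519% higher, 0.539% lower), and 3 (2 higher, 1 lower) with the replicate number as a block, when 5.85% of all genes did. Removal of the GC trend gave 6, 3 higher and 3 lower, when 8.65% of all genes did (4.09% higher, 4.56% lower). The gene was SCN4B, a sodium channel beta subunit that supports resurgent current. It was named in choosing the set, with its result known, so its levels are a description. It lay at 1.29, 1.14 and 1.19 CPM in the control and 3.82, 3.58 and 4.93 with TEPA, and at 0.560, 0.647 and 1.05 with IFN and 1.92, 2.48 and 1.74 with TEPA and IFN. The TEPA libraries lay above their controls in both settings. The log2 differences were 1.77 (SE 0.29) and 1.43 (SE 0.30). The second missed the threshold without IFN library 1 or 2 or TEPA and IFN library 2 (highest adjusted p 0.0883). In fits of only the libraries compared, both missed it (0.0866 for the first and 0.0746 for the second). Its neighbour SCN2B, the next beta subunit gene on chromosome 11, lay at 0.147 to 0.348 CPM with TEPA.

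With IFN present, TEPA moved 4 of 74 channel genes past the threshold (2 higher, 2 lower, against 1.9% of all genes, of which 0.757% higher and 1.15% lower). After removal of the GC trend it was 10, 4 higher and 6 lower, when 13.4% of all genes passed (7.53% higher, 5.85% lower). Besides SCN4B, KCNMA1 rose further, from 6.02, 7.94 and 7.63 CPM to 10.3, 13.4 and 12.6 (log2 change 0.75, SE 0.19, adjusted p = 0.0409), with no overlap. That call was lost on leaving out any 1 of the 6 libraries (highest 0.182), and TEPA alone gave 0.35 (adjusted p = 0.618). CACNG8, a gamma-family subunit, lay at 13.7, 16.8 and 12 CPM with IFN and 9.87, 10.49 and 7.72 with TEPA and IFN. It fell by 0.60 on the log2 scale and was lost on leaving out any 1 library other than IFN library 3 (highest 0.196). KCNQ1OT1, a long noncoding RNA transcribed opposite to KCNQ1, lay at 3.47, 6.51 and 5.94 CPM with IFN and 1.22, 1.09 and 1.81 with TEPA and IFN (log2 change -1.94, SE 0.36, adjusted p = 0.0063). It also fell by 1.26 on the log2 scale with TEPA and IFN against TEPA alone, a call lost without TEPA library 1 or 3 or TEPA and IFN library 1 or 2 (highest 0.0875). It overlaps 121 exon bases of KCNQ1 on the opposite strand. Without IFN library 1 or 2 or TEPA and IFN library 2, 1 channel gene was called (1.14%, 1.18% and 0.838% of all genes). When TEPA and IFN library 1 or 3 was left out, 2 channel genes were called (0.878% and 1.7% of all genes). SCN4B with TEPA and IFN differed from TEPA alone by -1.0 on the log2 scale, a value from the libraries it was chosen on and so a description. With DC and IFN it differed from DC alone by -0.99 (adjusted p = 0.0486), a call lost on leaving out any 1 library other than DC library 1 (highest 0.211) and in a fit of only the libraries compared (0.0978). Against the untreated control IFN gave -0.67 (adjusted p = 0.113), which passed the threshold with the replicate number as a block (-0.69, adjusted p = 0.0462), with the GC trend removed (-1.10, 0.00939), with both (0.00551) and without IFN library 3 (-1.01, 0.0395). That comparison shares its control libraries with TEPA alone.

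DC moved no channel gene, alone or with IFN. Alone, 2 of all genes passed (0.0136%), and with IFN 3 (0.0205%, of which 0.0136% higher and 0.00682% lower). At an unadjusted p under 0.05 there were 0 channel genes alone and 2 with IFN, of 135 and 336 in all. DESeq2 and limma-voom also called 0 channel genes in both. With the GC trend removed 0 channel genes passed, when 0.0478% of all genes did alone (all higher) and 0.0614% with IFN (0.0546% higher). For SCN4B the interval ran from -0.45 to 0.80 on the log2 scale with DC alone, and for KCNN3 from -0.50 to 0.63.

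Copper for 4 h moved 3 of 74 channel genes (4.05%) past the threshold, against 5.85% of all genes (2.65% higher, 3.2% lower). With the replicate number as a block it was 6 (3 higher, 3 lower), when 15.6% of all genes passed, and with the GC trend removed 11 (6 higher and 5 lower), when 21.3% of all genes passed (8.88% higher, 12.4% lower). KCNJ3, a subunit of the potassium channel opened by G proteins, lay at 1.07, 0.762 and 0.607 CPM in the control and 3.46, 2.74 and 2.54 with copper (log2 change 1.85, SE 0.26, adjusted p = 0.000136), with no overlap. KCNJ2 lay at 5.42, 4.90 and 3.58 CPM and 10.4, 7.87 and 7.68 with copper (0.90, SE 0.19, adjusted p = 0.00668), also with no overlap. KCNK1, a background-leak pore, lay at 8.29, 6.33 and 6.14 CPM and 4.70, 3.67 and 4.12 with copper (-0.73, SE 0.18, adjusted p = 0.0195). It was not called without control library 1 or copper library 2 (highest 0.0728). Nor was it called without both 4 h libraries numbered 1 (0.062), when 2 channel genes and 5.03% of all genes passed. In a fit of only the 6 libraries compared, no channel gene passed, when 0.438% of all genes did, with KCNJ3 at an adjusted p of 0.066. Schwann cell markers summed to 29.7 to 30.9 CPM with copper and 45.7 to 49.2 in the control, with SOX10 at 0 to 3 counts in every library, and their part was not tested.

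**Figure D4:**
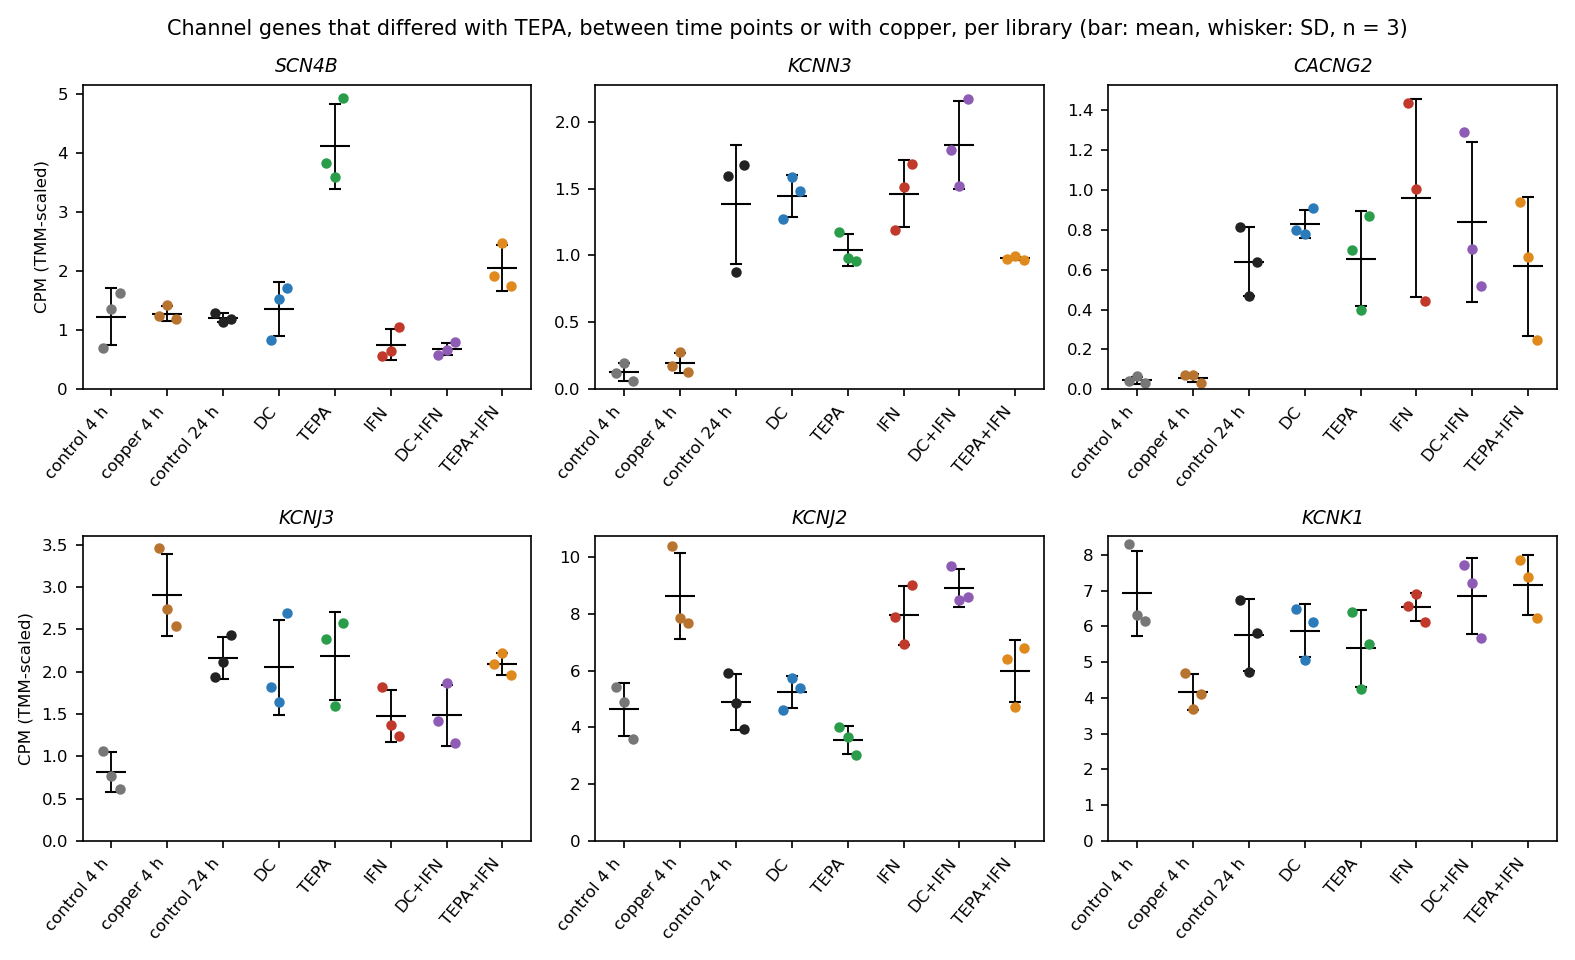
CPM per library in all 8 groups for channel genes called with TEPA, with copper or between the 4 h and 24 h controls (points: libraries; bar and whisker: mean and SD, n = 3). SCN4B stands at 3.58 to 4.93 CPM with TEPA, and KCNN3 stays below 0.3 CPM in all 4 h libraries.

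The 24 h and 4 h untreated cells differed in 16 of 74 channel genes (21.6%, 13 higher and 3 lower at 24 h), against 9.69% of all genes (5.9% higher, 3.79% lower). With the GC trend removed it was 26 (20 higher, 6 lower), when 26.5% of all genes passed (11.7% higher, 14.8% lower). These counts include KCNN3, which was named in choosing the set with its result known. They also include CACNG2 and KCNA3, which, as KCNN3 did, met the count rule only through libraries at 24 h. This comparison leaned on single libraries: 35 channel genes passed without 4 h control library 1, when 49.8% of all genes did, and 39 (21 higher, 18 lower) without that and the copper library 1, when 55.3% did. Only 7 passed without 4 h control library 3, 9 without 4 h control library 2, 8 without 24 h control library 3 and 9 without 24 h control library 1, when 3.76%, 4.34%, 4.14% and 4.27% of all genes did. In a fit of only these 6 libraries none passed, when 0.00725% of all genes did. Schwann cell markers summed to 45.7 to 49.2 CPM at 4 h and 60.2 to 66.8 at 24 h, and their part was not tested. Time and any other difference between the 4 h and 24 h harvests cannot be told apart.

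KCNN3 encodes a small-conductance potassium channel opened by calcium. It was named in choosing the set, with its result known, so its levels are a description. It lay at 0.123, 0.199 and 0.0639 CPM in the 4 h control and 0.177, 0.277 and 0.132 with copper. In the 24 h control it lay at 1.60, 0.873 and 1.68, and over all 24 h groups between 0.873 and 2.17. All 18 libraries at 24 h were above all 6 at 4 h. The log2 difference between controls was 3.39 (SE 0.34). Treatments did not move it past the threshold: copper gave 0.59 (adjusted p = 0.736), TEPA -0.42 (0.724) and IFN 0.08 (0.829). SCN2A, KCNJ14 and CACNG2 also lay higher in all 18 libraries than in all 6, which makes 3 channel genes without KCNN3, against 1.92% of all genes. KCNH1 and KCNH8 lay lower in all 18, against 1.48%. The 18 include the libraries with IFN, in which these 2 genes were lower. Between the controls, KCNJ14, KCNH1 and KCNH8 were not called, and they passed there with the GC trend removed. Under the other alternatives these genes were not followed singly.

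Other channels higher at 24 h included sodium pores. SCN2A lay at 26.2, 18.7 and 17.4 CPM at 4 h and 38.8, 34.1 and 37.2 at 24 h (log2 change 0.82, SE 0.15, adjusted p = 0.0015). SCN9A lay at 182, 129 and 117 CPM against 253, 211 and 268 (0.78), and SCN3A at 56.7, 37.7 and 33.3 against 72.0, 70.6 and 72.8 (0.76). SCN9A was lost without 4 h control library 3 (adjusted p 0.06), and SCN3A without 4 h control library 2 or 3 (highest 0.0676). CACNG2, a subunit best known for AMPA receptor traffic, lay at 0.0411, 0.0662 and 0.032 CPM and at 0.815, 0.470 and 0.637 at 24 h (3.67, SE 0.65). Its lowest count was 1, so the size of this difference is uncertain. KCNJ3 rose by 1.42, KCNJ8 by 0.49 and KCNQ1OT1 by 1.62 on the log2 scale. KCNQ1OT1 was lost without 24 h control library 3 (0.0733).

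Calls that depended on more libraries were those of SCN3B (0.51), KCNA3, a voltage-gated pore (3.48), KCNK5, a leak channel (-1.69), KCNMB4 (-0.40), KCNAB3 (-0.61), KCNH7 (1.08) and KCNT2 (0.58). KCNA3 was rare, at 0.0639 to 0.297 CPM over the 4 h libraries and with a lowest count of 2. SCN3B, KCNA3 and KCNK5 were lost without 24 h control library 1 or 3 or 4 h control library 2 or 3, with highest adjusted p of 0.104, 0.123 and 0.2. KCNMB4 was lost on leaving out any 1 of the 24 h control libraries or 4 h control library 3 (0.156). KCNAB3, KCNH7 and KCNT2 were lost on leaving out any 1 library other than 4 h control library 1, with highest adjusted p of 0.203, 0.177 and 0.224. KCNH7 shares 189 exon bases with GCA on the opposite strand.

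GC content moved with some of these levels. KCNH2, with a GC fraction of 0.668, lay at 12.6, 44.0 and 71.7 CPM in the 4 h control libraries, in the same order as their GC differences. Between the controls, the 29 channel genes with a GC fraction above 0.55 had a median log2 change of -0.36 and the 23 under 0.45 had 0.38, while all genes gave -0.68 and 0.16. For IFN alone the 2 medians were 0.19 and 0.02 for channel genes and 0.70 and -0.23 for all genes. Removing the trend left the direction of each named call in place.

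**Figure D5:**
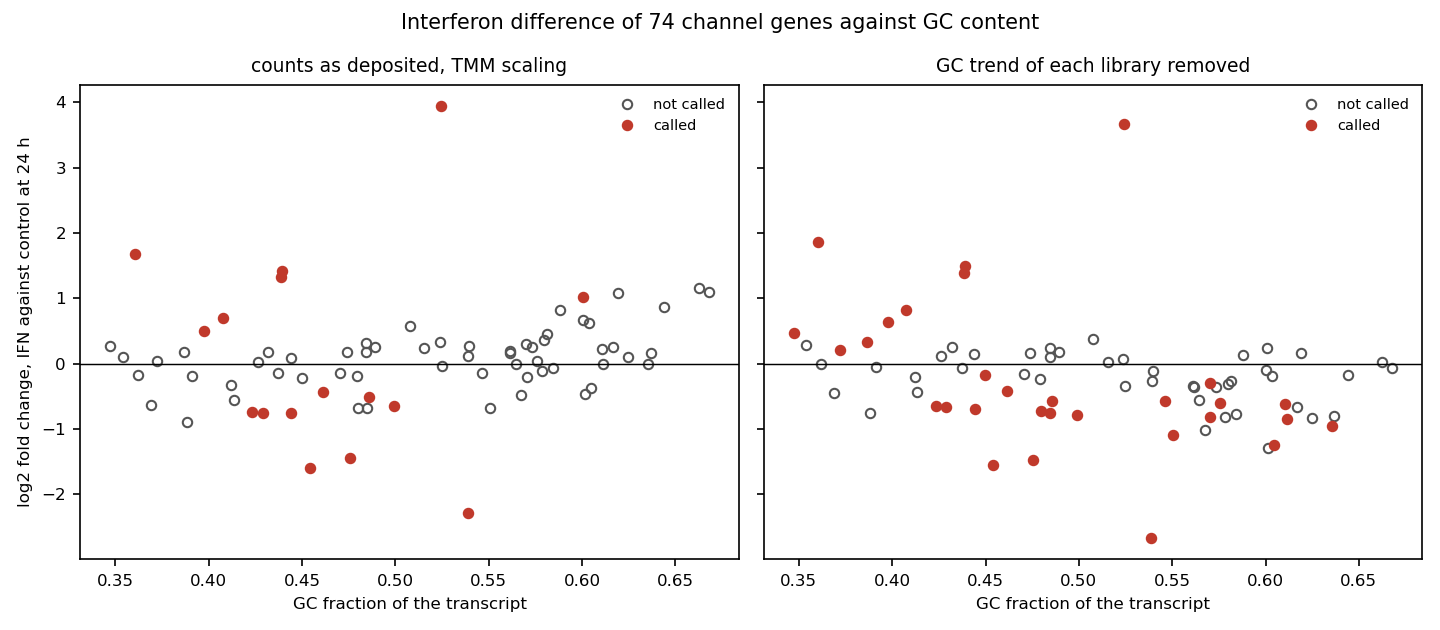
Log2 fold change with IFN against the 24 h control for 74 channel genes against the GC fraction of their transcripts, before and after the GC trend was removed. The rightmost point, the GC-rich KCNH2, goes from 1.09 to -0.07, while KCNQ3 stays at -1.60 and -1.56.

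Genes whose products bind, traffic or anchor these channels were taken from a list of 50, of which 37 were tested. With IFN alone 2 rose and 6 fell (21.6% of the 37, against 18.8% of all genes). The calcium channel inhibitor GEM rose by 0.46 on the log2 scale, while the scaffold DLG1 changed by -0.74, the Kv4 partner DPP10 by -0.76 and the calcium channel inhibitor REM2 by -1.12. The calmodulin gene CALM2 changed by -0.56. With DC, IFN raised 3 and lowered 0 (8.11%, against 9.82% of all genes): DLG2, a scaffold (0.57), GEM (0.40) and STAC, a calcium channel adaptor (0.35). With TEPA, IFN raised STAC (0.28) and lowered 3 (10.8% in all, against 14.2%), namely CALM2 (-0.59), DLG1 (-0.54) and FAM155A, a subunit of the sodium leak channel (-0.38). STAC was called in all 3 interferon settings, while DPP10 and REM2 were called in neither chelator setting (DPP10 -0.56 and -0.59, REM2 -0.80 and -0.41). Under TEPA 0 rose and 3 fell (8.11%, against 1.06% of all genes): ANK2, an anchor of sodium channels (-0.34), NEDD4L, which marks channels for removal (-0.32), and CACHD1 (-0.29). Under TEPA with IFN also 3 fell (8.11%, against 1.9%), led by UNC80 (-0.53), a subunit of the sodium leak channel. Copper moved 2 up, led by STAC (0.45), and 2 down, led by FAM155A (-0.34), which is 10.8% against 5.85% of all genes. DC moved 0 of 37, alone or with IFN, in edgeR, and the most abundant, CALM2, had a log2 change of -0.03 with DC alone. At 24 h against 4 h, 3 rose, among them AKAP9 (0.67) and UNC79 (0.60), and AKAP5 fell by 0.71 on the log2 scale (10.8% called, against 9.69%).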

How the data were processed

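RNA of 24 libraries in 8 groups of 3 was analysed. The authors deposited whole-number read counts per gene symbol, 1 table for all libraries. STAR 2.5a, RSEM 1.2.31 and build hg38 are named, per the submitters' processing notes. The annotation release, the strand setting and any filter are not given in the sources used here. Groups came from the labels.

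In R 4.3.3, filterByExpr of edgeR 4.0.16 kept 14654 of 26485 genes. A quasi-likelihood model with TMM factors and 1 mean per group was fitted to all 24 libraries (16 residual degrees of freedom, common biological coefficient of variation 0.207). Every adjusted p is Benjamini-Hochberg over all genes tested, called under 0.05. Of the 11 comparisons, 2 were differences of differences. Symbols were matched to GENCODE 29 for length, GC content and exons (90.2%). Counting intervals cover counting error only.

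Alternatives were RLE factors, no filter, DESeq2 1.42.0, voom of limma 3.58.1, only the libraries compared, a replicate block, removal of a GC trend (spline of 5 degrees of freedom, without and with the block) and each library left out. The script was tested on simulated data. Same-numbered libraries deviated together (every correlation over 0.1) for copper (0.87, 0.35 and 0.82), DC alone (0.15, 0.55 and 0.23), TEPA alone (0.36, 0.57 and 0.23) and IFN with TEPA against TEPA (0.29, 0.56 and 0.23). This pairing is read from the data, not the labels. The rule for naming took KCNN3 and SCN4B, called genes (up to 12 a direction), the 3 most abundant of each class and up to 6 called partners. Some genes and motifs are not reported here. Partner genes were counted without the alternatives. Genes, lists, groupings and alternatives were chosen with earlier results of these data known.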

Additional observations from a re-analysis of the deposited data

How the results depend on the processing

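Of 64 calls of named genes, tried under 911 alternative values, 759 kept direction and side of the threshold, 152 lost the threshold and 0 reversed, and 23 calls were kept under every alternative. For DC, alone or with IFN, and for the 2 differences of differences, the count was 0 under every alternative. In what follows, TEPA with IFN is set against IFN, and IFN with DC or with TEPA is set against that chelator alone. Without the filter on low counts the calls for TEPA with IFN were 2, when 0.91% of all genes passed. In fits of only the libraries compared, 0.438%, 0%, 0.86% and 0.00725% of all genes passed for copper, TEPA, TEPA with IFN and between controls. The calls of channel genes there were 0, 0, 1 and 0. With the replicate block they were 6 for copper, 3 for TEPA, 9 for TEPA with IFN, 29 for IFN and 23 for IFN with TEPA, when 15.6%, 5.85%, 7.23%, 56% and 39.4% of all genes passed, and the block ended no call of a named gene. In no comparison did every library correlate best with its own number. With the GC trend removed the counts were 11 for copper and 6 for TEPA (21.3% and 8.65% of all genes). For TEPA with IFN the count was 10 (13.4%), for IFN 30 (39.5%) and for IFN with DC 24 (27.4%). The counts were 30 for IFN with TEPA (33%) and 26 between controls (26.5%). With the trend removed and the block added they were 13, 9, 12, 35, 27, 37 and 27 (27.5%, 14.1%, 19.1%, 50.2%, 34.7%, 42% and 30.1% of all genes). Leaving out both 4 h libraries numbered 1, chosen after seeing the data, gave 39 between controls (55.3% of all genes). Leaving out each library gave 2 to 3 calls for copper, 1 to 1 for TEPA, 1 to 3 for TEPA with IFN, 10 to 18 for IFN, 6 to 11 for IFN with DC, 9 to 16 for IFN with TEPA and 7 to 35 between controls. Of all genes, those fits called 4.46% to 7.62%, 0.412% to 0.858%, 0.838% to 1.7%, 11.5% to 24.6%, 7.34% to 9.78%, 10.3% to 23.4% and 3.76% to 49.8%, in the same order. Reversals, 16 values of 7 results, touched only uncalled results of SCN4B and KCNN3. SCN4B between controls was 0.019 in voom, 0.011 with the block, 0.27 with the GC trend removed and 0.28 with both, and without both 4 h libraries numbered 1 it was -0.20 for copper. With each library left out, SCN4B ran from -0.35 to 0.19 between controls, -0.24 to 0.30 for copper, -0.30 to 0.20 for DC with IFN and -0.56 to 0.00755 for the DC difference of differences. KCNN3 ran from -0.16 to 0.25 for DC, -0.17 to 0.24 for IFN and -0.35 to 0.063 for the TEPA difference of differences. The cause was not tested. Depth limits rare transcripts such as KCNIP1, SCN2B, KCNA3 and CACNG2.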

Other observations

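With the GC trend removed, 7 channel genes called in none of the 3 interferon settings before removal passed the threshold in all 3: SCN9A, KCNT2, CACNG4, KCNAB3, KCNC1, KCNAB2 and CACNA1G. SCN9A, the most abundant sodium pore, was higher by 0.33 (SE 0.07) with IFN alone, 0.29 with DC and 0.35 with TEPA, where the fit without removal gave 0.17, 0.26 and 0.22. KCNT2, the sodium-activated potassium channel, was higher by 0.47, 0.28 and 0.41. CACNG4, the most abundant channel gene per kilobase, was at -0.82, -0.56 and -0.83, against -0.21, -0.26 and -0.39 before removal. KCNAB3, a subunit that modulates potassium pores, was at -0.57, -0.56 and -0.46, against -0.14, -0.32 and -0.16 before. KCNC1, a fast voltage-gated potassium pore of low level here, was at -0.85, -0.60 and -0.72. With the trend removed, 39.5%, 27.4% and 33% of all genes passed in the single settings. The share of all genes that met the joint rule was not counted, so the 7 genes have no background to be read against. These genes were named after their values were seen.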
